A study of Mus musculus with 12 samples.

Results

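GABA and glycine are the main inhibitory transmitters of the mammalian nervous system. The genes described here are 30 that make, load, take up or break down these transmitters, or that encode their receptors and the scaffold that anchors the receptors. They were taken by symbol from the 55450 genes of the deposited table, and all 30 were found. They comprise 3 genes of GABA synthesis and vesicle loading, 1 of GABA breakdown, 3 of GABA uptake, 12 subunits of the GABA-A receptor, 2 rho subunits, 2 subunits of the GABA-B receptor, 4 subunits of the glycine receptor, 2 of glycine uptake and 1 scaffold gene. Another 29 genes related to them were tested as a separate list. The study sequenced total RNA from the brains and livers of male mice, 7 to 9 weeks old. One genotype was wild type (Vaultrc5+/+, with "flx" in the library titles, a term the labels do not define) and the other lacked the vault RNA gene Vaultrc5 (Vaultrc5-/-). Each of the 4 groups, brain and liver of either genotype, had 3 libraries numbered 1 to 3. The labels name no Cre driver, strain or clone, and they do not say whether equal numbers mark the same mouse or whether a whole brain or a piece of it was taken.

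As background, glutamate decarboxylases make GABA from glutamate, a vesicular carrier loads GABA or glycine into vesicles, and transporters of the Slc6 family clear both from the synapse. GABA-A and glycine receptors are five-part chloride channels whose subunits set their place and kinetics, while the GABA-B receptor is a pair of subunits coupled to G proteins. Glycine transmission is concentrated in brainstem and spinal cord, and GABA transmission is found throughout the brain. In liver, GABA is mainly broken down, and several carriers of the same family move GABA, betaine and taurine there.

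The 30 genes lay on 12 chromosomes (build GRCm38, GENCODE annotation), and 13 of them fell into 5 clusters whose neighbours were within 1 Mb. The largest held Gabrg1, Gabra2, Gabra4 and Gabrb1 at chr5:70751047-72149037. Gabre, Gabra3 and Gabrq lay at chrX:72255999-72842602, Gabrg3 and Gabra5 at chr7:56716465-57510059, Slc6a13 and Slc6a12 at chr6:121300227-121365775, and Gabrr2 and Gabrr1 at chr4:33062999-33163588. No member shared exon bases with another gene on its own strand. On the other strand 7 did, among them Gabra4 and Gabrb1, whose first exons overlap. The kit preserves strand, but whether the counting used strand is not given in the sources used here.

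Slc6a13 and Slc6a12 were higher in liver, and Gabbr2 and Gabra3 were read in both tissues. Gabra5 differed between brain libraries by number, and Slc6a5 was highest in wild-type brain replicate 3. Upstream sequence is shown for these 6 genes, on which the results turn. Each is the longest run without an annotated exon among the 250 bases before the most upstream RefSeq start (GRCm38.p6), written in the direction of transcription. Capitals mark CG dinucleotides, the pair at which mammalian DNA is methylated. The runs are chr6:121300038-121300226 (plus strand), chr6:121342324-121342573 (plus), chr4:46991874-46991964 (minus), chrX:72656920-72657169 (minus), chr7:57510060-57510309 (minus) and chr7:49910049-49910145 (plus), in the order printed.
Slc6a13: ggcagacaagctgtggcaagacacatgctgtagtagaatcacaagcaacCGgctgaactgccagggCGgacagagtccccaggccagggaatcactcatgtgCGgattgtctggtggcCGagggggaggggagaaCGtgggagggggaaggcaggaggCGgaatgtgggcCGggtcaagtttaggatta
Slc6a12: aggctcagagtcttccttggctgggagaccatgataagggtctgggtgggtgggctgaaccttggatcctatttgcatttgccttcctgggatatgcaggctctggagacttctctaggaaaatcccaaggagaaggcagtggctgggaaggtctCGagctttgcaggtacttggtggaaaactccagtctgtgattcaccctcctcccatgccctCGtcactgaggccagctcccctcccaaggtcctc
Gabbr2: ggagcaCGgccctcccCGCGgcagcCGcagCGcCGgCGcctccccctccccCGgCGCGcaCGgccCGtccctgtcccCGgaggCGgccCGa
Gabra3: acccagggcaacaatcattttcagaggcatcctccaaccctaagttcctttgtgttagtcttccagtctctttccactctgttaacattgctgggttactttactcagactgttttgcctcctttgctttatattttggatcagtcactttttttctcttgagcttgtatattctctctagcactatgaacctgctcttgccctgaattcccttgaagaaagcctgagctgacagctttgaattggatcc
Gabra5: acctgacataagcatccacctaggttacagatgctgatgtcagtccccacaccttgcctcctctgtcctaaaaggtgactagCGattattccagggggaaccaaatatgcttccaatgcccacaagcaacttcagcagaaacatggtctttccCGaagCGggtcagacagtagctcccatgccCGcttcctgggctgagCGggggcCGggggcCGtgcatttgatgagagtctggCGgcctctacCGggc
Slc6a5: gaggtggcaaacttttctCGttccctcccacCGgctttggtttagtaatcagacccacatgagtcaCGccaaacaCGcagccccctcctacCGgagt
Across the full 250 bases the 6 differed widely in CG content. Gabbr2 held 37 CG dinucleotides, Slc6a5 held 11, Slc6a13 and Gabra5 held 9 each, Slc6a12 held 2 and Gabra3 held 0. Over all 32851 promoters of the RefSeq table the median was 6, with quartiles of 2 and 16. The table matched 27 of the 30 genes, with 40 promoters whose median was 8. Abat, Gabrd and Glra1 were not matched.

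Total counts were 14844970 to 18567380 in the brain libraries and 23247449 to 27155479 in the liver libraries. Vaultrc5 had 4, 1 and 4 reads in wild-type brain and 33, 39 and 48 in wild-type liver, against 0 in all 6 knockout libraries, so the check of genotype rested on few reads in brain. Pan-neuronal markers summed to between 5217 and 7008 CPM (counts scaled to a common library size) in brain and between 21.5 and 28.0 in liver. Hepatocyte markers summed to at least 48912 CPM in each liver library.

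Wild-type brain replicate 3 stood apart in hindbrain and oligodendrocyte markers before any comparison. A list of 16 hindbrain and spinal cord markers, mostly Hox genes, summed to 83.3 CPM there. In wild-type replicates 1 and 2 the sum was 4.82 and 0.386 CPM, and in knockout replicates 1, 2 and 3 it was 4.35, 0.473 and 3.09 CPM. All 16 markers had a read in wild-type replicate 3 and 15 of them were highest there, whereas 2 of 16 had a read in wild-type replicate 2. Oligodendrocyte markers summed to 7561 CPM in wild-type replicate 3 and to between 2205 and 4057 CPM in the other brain libraries. Counts of calls for knockout and number in brain, the spread between brain libraries and the count between tissues are therefore given with and without this library. Over all genes this library was not the most distant of the wild-type brain libraries. The summed absolute CPM difference between it and replicates 1 and 2 was 169822 and 175270, against 245430 between replicates 1 and 2. In bulk tissue, fewer cells of a type and less RNA per cell cannot be told apart.

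Most of the genes were well expressed in brain. On a scale of counts per exon length (TPM), 19 of 30 exceeded 10 TPM as the mean of the 6 brain libraries and 25 exceeded 1 TPM. The 19 include Glra1 through wild-type replicate 3 alone, and without that library, a comparison added after seeing the data, 18 exceeded 10 TPM and 25 exceeded 1 TPM. The 5 genes under 1 TPM were Gabre, Gabrq, Gabrp, Gabrr1 and Gabrr2. The 30 genes together summed to 1269 ± 191 TPM in wild-type brain (SD, n = 3) and 1178 ± 95.4 TPM in knockout brain. The highest 8 genes in wild-type brain were the same whether length was taken over all exons or from the longest transcript.

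**Figure D1:**
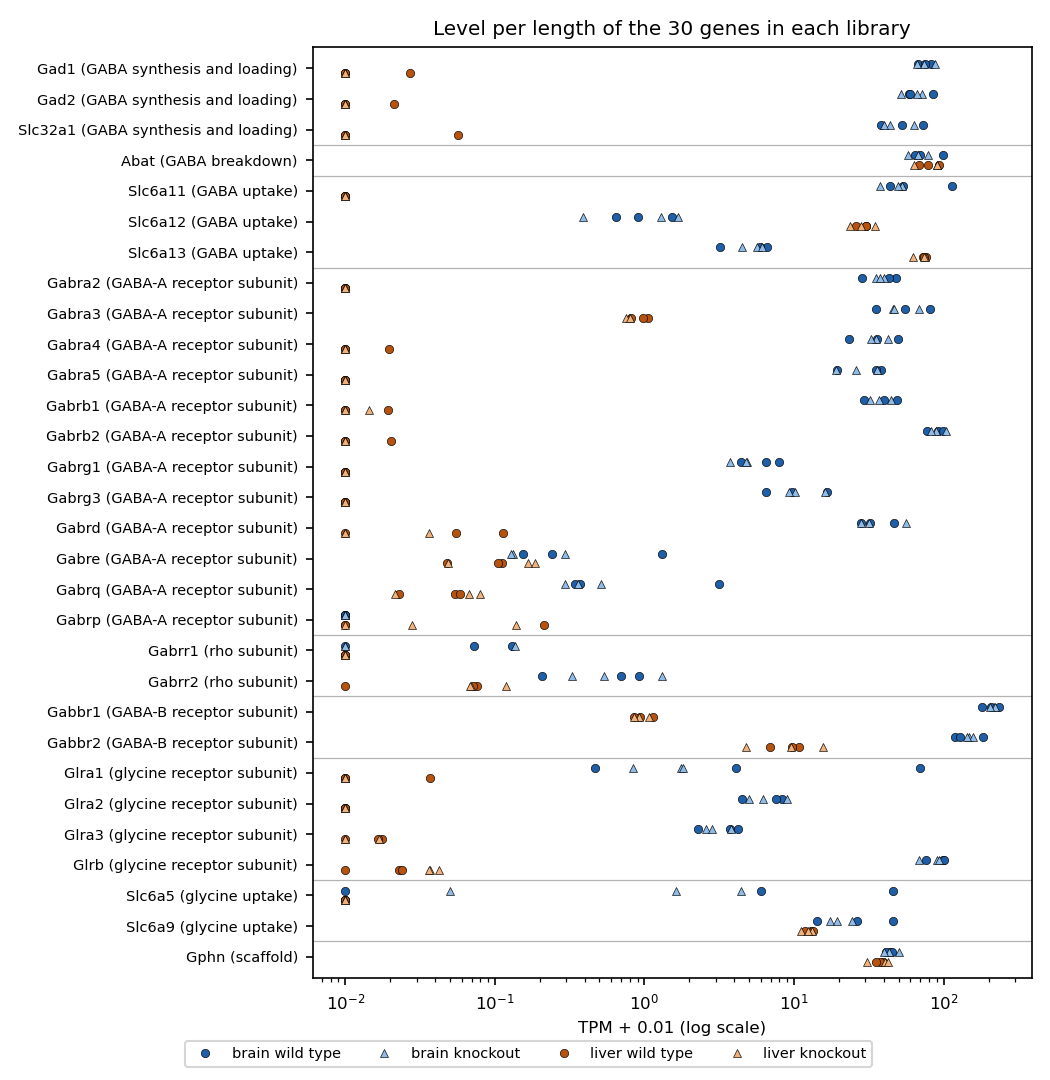
Level of each of the 30 genes in each of the 12 libraries, as TPM plus 0.01 on a log axis; circles are wild type and triangles knockout, blue is brain and orange liver, and points at the left edge are libraries with no read. Brain values exceed liver values for most genes, while Slc6a12 and Slc6a13 lie higher in liver and Abat and Gphn lie close together in the tissues.

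Both subunits of the GABA-B receptor led the order. Gabbr1, which binds GABA, stood at 180, 236 and 207 TPM in wild-type brain and at 217, 221 and 204 TPM in knockout brain. Gabbr2, its partner that couples to G proteins, stood at 119, 185 and 129 TPM in wild type and at 149, 158 and 144 TPM in knockout. The wild-type ranges of the pair met, since Gabbr2 in replicate 2 exceeded Gabbr1 in replicate 1.

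Below them, 6 genes had overlapping levels in wild-type brain. Glrb, the beta subunit shared by glycine receptors, had 76.1, 99.1 and 101 TPM. Gabrb2, a beta subunit of GABA-A receptors, had 91.6, 99.0 and 77.9 TPM. Abat, the transaminase that breaks down GABA, had 70.1, 64.2 and 99.6 TPM. The next 3 by mean level were also genes of GABA handling. Gad1 and Gad2, the glutamate decarboxylases, had 82.9, 67.5 and 75.0 TPM and 59.2, 59.2 and 85.0 TPM. Slc6a11, a GABA transporter of astrocytes, had 43.7, 53.2 and 114 TPM. The highest of these values was from replicate 3, and its place in this order rests on it. In knockout brain Slc6a11 had 46.6 ± 7.87 TPM, below Gabra3 at 53.6 ± 12.8 TPM, though within their spread.

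The GABA-A subunits spread from none to nearly the top of the list. After Gabrb2 came Gabra3 at 57.4 ± 22.9 TPM (SD, n = 3, wild-type brain), Gabra2 at 39.9 ± 10.1, Gabrb1 at 39.6 ± 9.85, Gabra4 at 36.3 ± 13.1, Gabrd at 35.7 ± 9.94 and Gabra5 at 30.9 ± 10.1 TPM. Neighbours in this order did not differ beyond their spread. Gabrg3 reached 10.9 ± 5.12 TPM and Gabrg1 reached 6.25 ± 1.76 TPM. Gabrp, known from epithelial tissues, had no read in any brain library, and a count of 0 allows up to 3 reads, or 0.162 to 0.202 CPM at these depths. The rho subunits, best known from retina, were near that floor: Gabrr1 had 0 to 2 reads and Gabrr2 had 3 to 19 reads per brain library.

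Glra2 and Glra3, alpha subunits of the glycine receptor, were low beside Glrb. Glra2 had 6.80 ± 2.04 TPM and Glra3 had 3.40 ± 1.01 TPM in wild-type brain. Glra1, another alpha subunit, had 4.10, 0.457 and 70.1 TPM there, the last in replicate 3. Of the remaining genes, the vesicular carrier Slc32a1 had 54.5 ± 17.3 TPM, the scaffold gene Gphn had 43.4 ± 2.02 TPM, and the GABA transporters Slc6a13 and Slc6a12 had 5.24 ± 1.83 and 1.02 ± 0.462 TPM. Relative to its mean, Gphn varied least among its 3 libraries of those named in this paragraph.

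Slc6a5, Glra1, Slc6a9, Gabrq and Gabre had their highest level in wild-type brain replicate 3. Slc6a5, the transporter of glycinergic neurons, had 18.7, 0 and 134 CPM in wild type and 12.5, 0.118 and 5.13 CPM in knockout. These CPM came from 315, 0 and 2300 reads in wild type and 189, 2 and 83 reads in knockout. Glra1, the alpha subunit that predominates in adult brainstem and spinal cord, had 4.28, 0.441 and 68.6 CPM in wild type and 1.65, 0.828 and 1.91 CPM in knockout. In both genes the replicate 2 library was the lowest of its genotype, and the groups overlapped. Gabrq had 6.84 CPM in wild-type replicate 3 against 0.679 to 1.06 CPM in the other 5 brain libraries. Gabre had 2.51 CPM there against 0.237 to 0.528 CPM elsewhere. Slc6a9, the glial glycine transporter, was also highest there, at 95.3 CPM, against 58.6 and 29.2 CPM in the other wild-type libraries and 49.5, 37.0 and 43.9 CPM in knockout. In all, 12 of the 29 genes with a read in brain were highest in this library, and 7 were highest in wild-type replicate 2. The same counts over all genes are not given here, so these describe the members only.

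**Figure D2:**
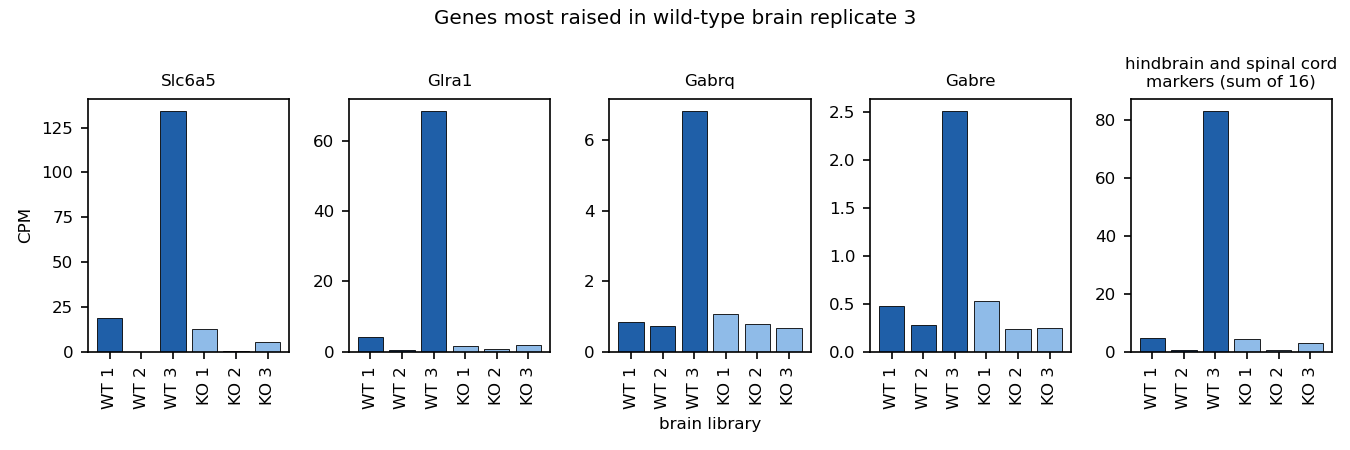
Level in CPM (linear axes from 0, a separate scale in each panel) of Slc6a5, Glra1, Gabrq and Gabre and of the summed 16 hindbrain and spinal cord markers in the 6 brain libraries; each bar is 1 library, dark blue for wild type (WT) and light blue for knockout (KO). Wild-type replicate 3 is the highest in every panel, at 134, 68.6, 6.84, 2.51 and 83.3 CPM.

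Glrb had 191 CPM there against 185 CPM in wild-type replicate 2, and Glra2 had 9.64 CPM there against 11.7 CPM in knockout replicate 2. The marker sum and both Slc6a5 and Glra1 were highest in wild-type replicate 3 and lowest in wild-type replicate 2, while Gabrq was lowest in knockout replicate 3 and Gabre in knockout replicate 2. The part of tissue composition in these levels was not tested.

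Loss of Vaultrc5 was then compared with wild type in brain. Gabre, Gabrp, Gabrr1 and Gabrr2 had too few counts to test. Of the other 26 members, 0 passed an adjusted p of 0.05 (edgeR quasi-likelihood test, Benjamini-Hochberg over all genes), with a background of 0% of 18075 genes. At an unadjusted p under 0.05 there were 2 members, Glra1 and Gabrg1, beside a background of 0.675% of genes. DESeq2 also called 0 members. With the replicate block 0 were called, and 1 member had an unadjusted p under 0.05 beside 2.25% of genes. The smallest adjusted p among the members was 1.00. No member had knockout and wild-type CPM that did not overlap, whereas 4.23% of the genes tested did. The median log2 fold change of the 26 was -0.07, and over all genes tested it was -0.01.

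Of the members with a low unadjusted p, Glra1 depended in size on wild-type replicate 3. Gabrg1 kept its direction with each library left out. The fitted log2 fold change of Glra1 was -4.06 ± 1.62 (SE, 3 against 3 libraries), with an unadjusted p of 0.0424 in edgeR. Without wild-type replicate 3 it was -0.68 ± 0.90. With the replicate block it was -3.06 ± 1.53, with an unadjusted p of 0.150 in edgeR. Gabrg1, a gamma subunit of GABA-A receptors, had 14.9, 20.4 and 25.2 CPM in wild type and 14.9, 15.4 and 13.0 CPM in knockout. Its log2 fold change was -0.48 ± 0.20, with an unadjusted p of 0.0484 in edgeR, and without wild-type replicate 3 it was -0.29 ± 0.18. Wild-type replicate 1 and knockout replicate 1 lay at the same Gabrg1 level. With the replicate block Gabrg1 was the 1 member with an unadjusted p under 0.05, at -0.46 ± 0.18 (p 0.0495, edgeR). The size for Glra1 with any other library left out stayed between -4.62 and -3.75, and for Gabrg1 between -0.66 and -0.41. At an unadjusted p under 0.05 there were 0 members without wild-type replicate 3 (background 0.444% of genes), and also 0 without knockout replicate 1, 2 or 3 (1.10%, 0.757% and 0.619%). There were 2 without wild-type replicate 1 (1.61%) and 5 without wild-type replicate 2 (3.32%).

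Other large differences were also smaller without wild-type replicate 3. For Slc6a5 the log2 fold change went from -3.12 ± 1.85 to -0.67 ± 1.86. For Gabrq it went from -1.74 ± 0.92 to 0.10 ± 0.41. Slc6a11 went from -0.57 ± 0.36 to -0.05 ± 0.20, and Slc6a9 from -0.49 ± 0.39 to -0.01 ± 0.31. The median over the 27 members then tested was -0.01. With all 6 libraries, 20 of 26 members lay within 0.25 of 0 on the log2 scale.

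**Figure D3:**
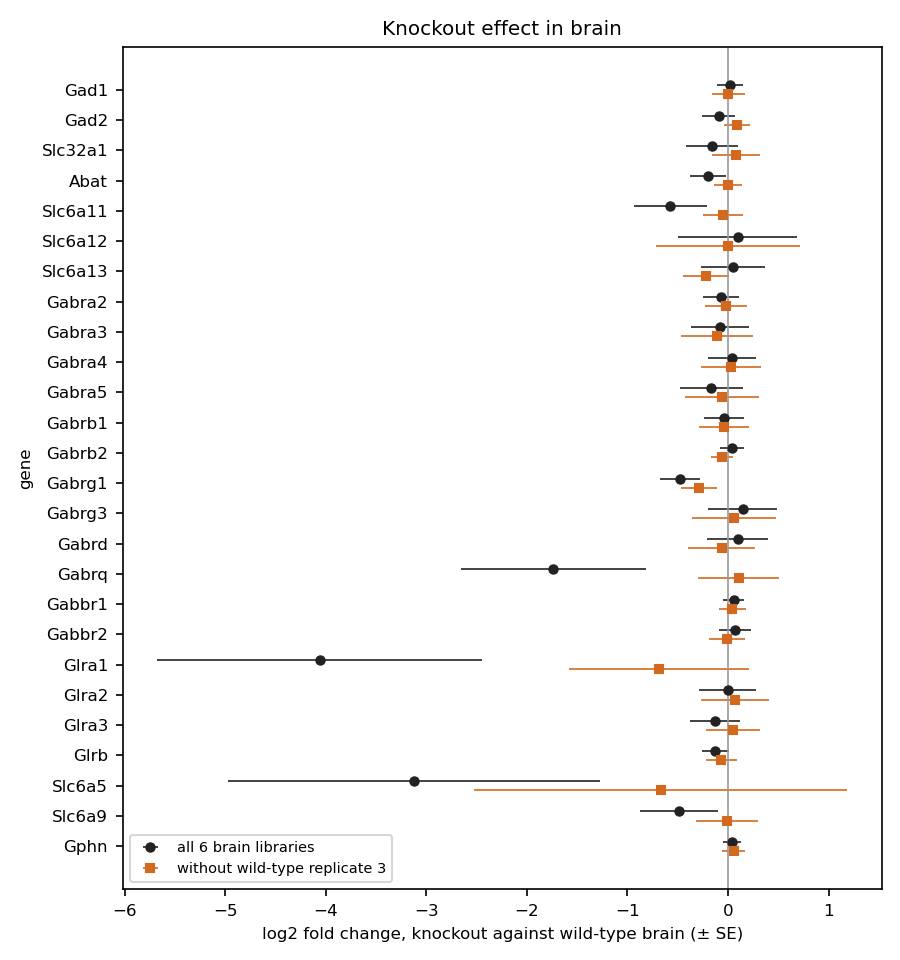
Fitted log2 fold change of knockout against wild-type brain for the 26 members tested, with the standard error as a bar; black circles use all 6 brain libraries and orange squares leave out wild-type replicate 3. Glra1, Slc6a5 and Gabrq lie at -4.06, -3.12 and -1.74 with all libraries and at -0.68, -0.67 and 0.10 without it.

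The genes above 10 TPM differed in how precisely the change was fitted, and several changed direction without wild-type replicate 3. Gabbr1 had a log2 fold change of 0.06 ± 0.11 and Gabbr2 of 0.07 ± 0.16, against 0.04 ± 0.13 and -0.01 ± 0.18 without that library. Gad1, Gad2 and Slc32a1 had 0.02 ± 0.13, -0.09 ± 0.16 and -0.16 ± 0.25, and without it 0.0026 ± 0.16, 0.09 ± 0.13 and 0.08 ± 0.24. Gphn, which clusters the receptors at the synapse, had the smallest error, at 0.04 ± 0.09, or 0.06 ± 0.11 without it. Among the GABA-A subunits, Gabrb2 had 0.04 ± 0.12, Gabra2 had -0.07 ± 0.18, Gabra3 had -0.08 ± 0.29 and Gabra5 had -0.16 ± 0.31. Without it these 4 had -0.06 ± 0.11, -0.02 ± 0.21, -0.11 ± 0.36 and -0.06 ± 0.37. Abat went from -0.20 ± 0.18 to -0.0010 ± 0.14. In knockout brain Gad1 had 264, 233 and 224 CPM, inside the wild-type range of 206 to 274 CPM.

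In liver, few of the genes were read. In every liver library 18 of 30 members had no more than 3 reads, and 8 of these had none. The 5 members above 10 TPM were Abat, Slc6a13, Gphn, Slc6a12 and Slc6a9. Abat had 93.0, 78.9 and 68.7 TPM in wild-type liver, and Slc6a13 had 76.3, 73.1 and 74.0 TPM. Gphn, whose protein also makes the molybdenum cofactor outside the nervous system, had 39.3, 37.3 and 35.2 TPM. Slc6a12, a carrier of betaine and GABA, had 30.3, 30.3 and 26.0 TPM, and Slc6a9 had 11.9, 12.9 and 13.4 TPM. These levels differed little between libraries, and the order of Abat and Slc6a13 was not fixed within their spread.

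Receptor subunits were rare in liver, with Gabbr2 the main exception. Gabbr2 had 44.2, 28.5 and 39.2 CPM in wild-type liver and 39.2, 22.0 and 58.5 CPM in knockout liver. Its partner Gabbr1 had only 4.41, 5.45 and 3.93 CPM in wild type and 4.37, 4.55 and 4.63 CPM in knockout. Per length, Gabbr2 stood at 9.16 ± 2.05 TPM and Gabbr1 at 0.969 ± 0.148 TPM in wild-type liver, the reverse of their order in brain. Gabra3 had 60, 53 and 59 reads in wild-type liver and 49, 48 and 41 reads in knockout liver. Each knockout library thus held fewer Gabra3 reads than any wild-type library, but in CPM, at 2.52, 1.95 and 2.30 against 1.88, 2.04 and 1.74, the groups overlapped. Gabrp, which had no read in brain, had 10, 0 and 0 reads in wild-type liver and 7, 1 and 0 in knockout liver.

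The knockout showed no called difference in liver among these genes. Of the 8 members tested, 0 passed the threshold (edgeR), with a background of 0% of 15329 genes. At an unadjusted p under 0.05 there were 0 members beside 3.50% of genes. DESeq2 also called 0 members, beside 0.0652% of genes. With the replicate number as a block, since the numbers pair the liver libraries, 0 of 8 members were called beside 0.0130% of genes (2 genes, against 0 without the block), and 0 had an unadjusted p under 0.05 beside 6.41% of genes. The log2 fold changes ran from -0.26 ± 0.20 for Gabra3 to 0.10 ± 0.37 for Gabbr2, which was at 0.02 ± 0.20 with the block. Abat had 439, 379 and 320 CPM in wild type and 433, 342 and 394 CPM in knockout, a log2 fold change of 0.04 ± 0.15. Slc6a13 had 135, 132 and 129 CPM in wild type and 133, 127 and 120 CPM in knockout, or -0.06 ± 0.08, the same with the block. For 0 of the 8 did the groups fail to overlap, against 9.84% of the genes tested.

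**Figure D4:**
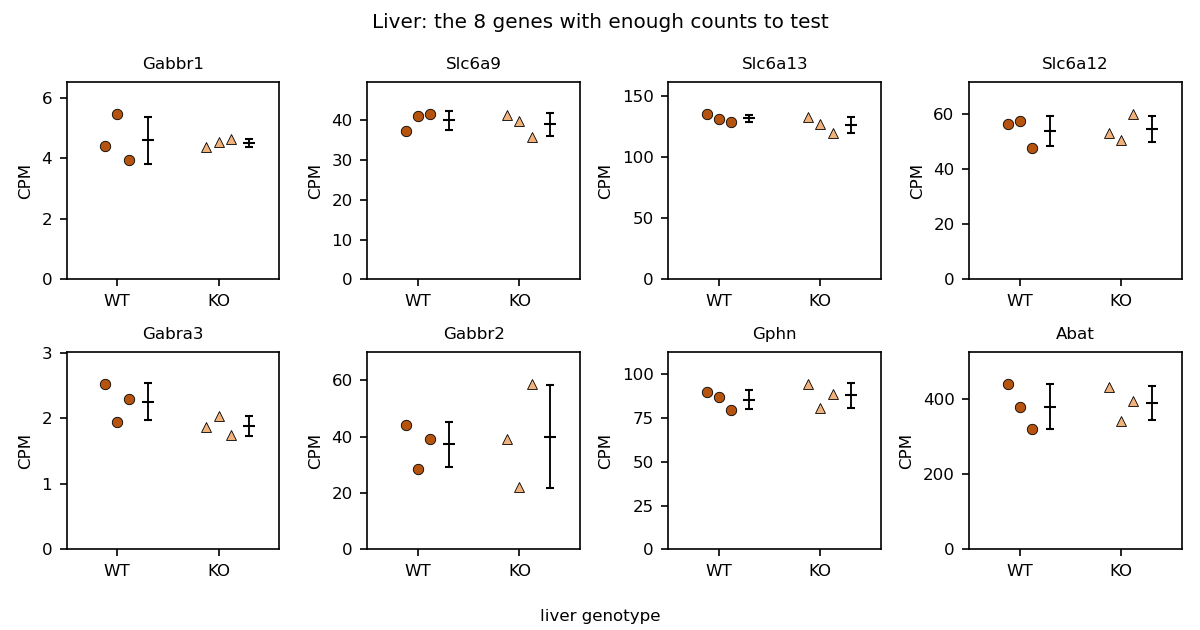
CPM in each liver library of the 8 members tested, on linear axes from 0; circles are wild type (WT), triangles knockout (KO), and the bar beside each group is its mean and SD over 3 libraries. The groups overlap in every panel, and Gabbr2 has the widest relative spread, from 22.0 to 58.5 CPM, or 2.66-fold.

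Whether the knockout effect differed between the tissues was tested directly. Of 28 members with enough counts, 0 passed, with a background of 0% of 20141 genes (edgeR interaction term), and 0 had an unadjusted p under 0.05 beside 2.43% of genes. DESeq2 called 0 members, beside 0.00496% of genes. Only 8 of these members had enough liver counts to test there, and for the others, which passed the filter mainly through brain, a difference was not detectable at this depth. For the 8, the effect in liver minus that in brain ran from -0.20 ± 0.38 for Gabra3 to 0.43 ± 0.43 for Slc6a9 on the log2 scale. Without brain wild-type replicate 3 it ran from -0.12 ± 0.44 for Gabra3 to 0.17 ± 0.20 for Slc6a13, with Slc6a9 at -0.02 ± 0.29.

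Between the tissues the genes differed strongly. In wild type, 23 of the 24 members tested were called (edgeR), 19 higher and 4 lower in brain, with backgrounds of 78.6% of 18850 genes called, 43.9% higher and 34.7% lower. Without brain wild-type replicate 3, 25 of 25 were called, 20 higher and 5 lower, beside 73.8% of genes. In knockout, 25 of 25 were called, 20 higher and 5 lower in brain (20 and 4 with library totals), beside 78.7% of 18785 genes, 43.5% higher and 35.2% lower. Most of the members higher in brain passed the filter on low counts only through their brain reads, so these counts describe the genes and support nothing further. The knockout and wild-type contrasts share no library.

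For genes with no read in any liver library of a genotype, the difference was given as a bound against 3 reads per library, on library totals. Among the members tested in wild type there were 6 such genes, from at least 73.2-fold higher in brain for Glra2 to at least 1223-fold for Slc6a11. Without brain wild-type replicate 3, a comparison added after seeing the data, Slc6a11 was at least 846-fold higher and Gabra2, at 1001-fold, had the largest of the 6 bounds. In knockout there were 12, from at least 12.0-fold for Glra1 to at least 1979-fold for Gabrb2. With the trimmed-mean sizes of the fit, chosen as an alternative after seeing the data, the bounds for these genes, with all libraries, were 41.0 and 681 in wild type and 6.56 and 1083 in knockout. Of the genes at 0 in knockout liver, Gad1, Gad2, Slc32a1, Gabrb2 and Glra1 had 1 or 2 reads in liver wild-type replicate 3, and Gabra4 had 1 read in replicate 2. Members read in both tissues allowed a measured difference. Gabbr1 was higher in brain by 6.31 ± 0.18 on the log2 scale in wild type and by 6.39 ± 0.12 in knockout. Gabra3 was higher by 4.49 ± 0.30 and 4.67 ± 0.21, and Gabbr2 by 2.55 ± 0.22 and 2.53 ± 0.33 (all called by edgeR in both genotypes). With library totals these were 7.15 and 7.27 for Gabbr1, 5.32 and 5.54 for Gabra3, and 3.39 and 3.39 for Gabbr2.

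The 2 neighbouring transporter genes were higher in liver. Slc6a12 had 56.3, 57.4 and 47.7 CPM in wild-type liver against 2.02, 0.772 and 1.11 CPM in wild-type brain. The log2 fold change of brain against liver was -6.23 ± 0.30 in wild type and -6.15 ± 0.38 in knockout. Slc6a13 had 135, 132 and 129 CPM in liver against 8.32, 6.89 and 3.74 CPM in brain, and its log2 fold change was -5.24 ± 0.29 in wild type and -5.13 ± 0.18 in knockout. The CPM were scaled within each tissue, and the fit was scaled across both. With library totals the log2 fold changes were -5.39 and -5.28 for Slc6a12 and -4.40 and -4.25 for Slc6a13. No brain library reached the lowest liver value of either gene. The adjacent transporter gene pair thus differed from Slc6a11, at some distance on the same chromosome, which had no read in liver and 95.4, 107 and 235 CPM in wild-type brain.

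Abat and Gphn were lower in brain in the fit, at -1.47 ± 0.20 and -1.20 ± 0.11 in wild type, but the size depended on the scaling. With library totals in place of edgeR's trimmed-mean factors, the wild-type values were -0.62 ± 0.20 for Abat and -0.36 ± 0.11 for Gphn, while the median over all genes went from 0.21 to 1.05. Per length, Abat stood at 78.0 ± 19.0 TPM in wild-type brain and 80.2 ± 12.2 TPM in wild-type liver, and Gphn at 43.4 ± 2.02 and 37.3 ± 2.04 TPM. Slc6a9 had no stable direction: its log2 fold change was -0.25 ± 0.36 in wild type and -0.70 ± 0.14 in knockout, and with library totals it was 0.60 ± 0.37 and 0.18 ± 0.14. Without brain wild-type replicate 3 the wild-type value was -0.77 ± 0.27 and passed the threshold (adjusted p 0.0358, edgeR), and without brain wild-type replicate 2 it was 0.02 ± 0.21.

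Apart from the knockout, the members varied between brain libraries. The highest brain library exceeded the lowest by at least 2-fold for 10 of the 26 members tested (38.5%), against 27.1% of all genes tested, and the median coefficient of variation over the 6 libraries was 25.0% against 15.8%. Without wild-type replicate 3, a comparison added after seeing the data, these were 7 of 26 (26.9%) against 23.6% and 19.2% against 15.3%. In liver 1 of 8 members, Gabbr2, reached 2-fold (12.5%, against 24.6% of genes), and the median coefficient of variation was 9.68% against 14.2%.

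Part of the brain variation went with the replicate number. A test of the number across both genotypes called 5 of 26 members (edgeR), with a background of 7.93% of 18075 genes, and 11 had an unadjusted p under 0.05 beside 25.3% of genes. The 5 were GABA-A subunits. Gabra5, a subunit of hippocampal extrasynaptic receptors, had 24.8 and 22.2 CPM in the number 1 libraries (wild type, then knockout), 45.2 and 44.2 CPM in number 2 and 42.9 and 34.3 CPM in number 3, with an adjusted p of 0.0115. Gabrg3 had 33.7 and 47.4 CPM in number 1, 78.9 and 79.5 CPM in number 2 and 46.6 and 49.2 CPM in number 3, with an adjusted p of 0.0155. Both were highest in the number 2 libraries.

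Gabrd, the delta subunit of extrasynaptic receptors on cerebellar and dentate granule cells, ran the other way. It had 58.4 and 63.4 CPM in number 1, 37.0 and 33.4 CPM in number 2 and 32.7 and 40.3 CPM in number 3, with an adjusted p of 0.0189 (edgeR). Gabra3 had 60.4 and 70.3 CPM in number 1, 128 and 110 CPM in number 2 and 88.0 and 80.9 CPM in number 3, with an adjusted p of 0.0203. Gabrb1 had 177 and 175 CPM in number 1, 272 and 254 CPM in number 2 and 226 and 225 CPM in number 3, with an adjusted p of 0.0256. Within each genotype, Gabra3, Gabrb1, Gabrg3 and Gabra5 were lowest in number 1 and highest in number 2, and Gabrd was highest in number 1.

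**Figure D5:**
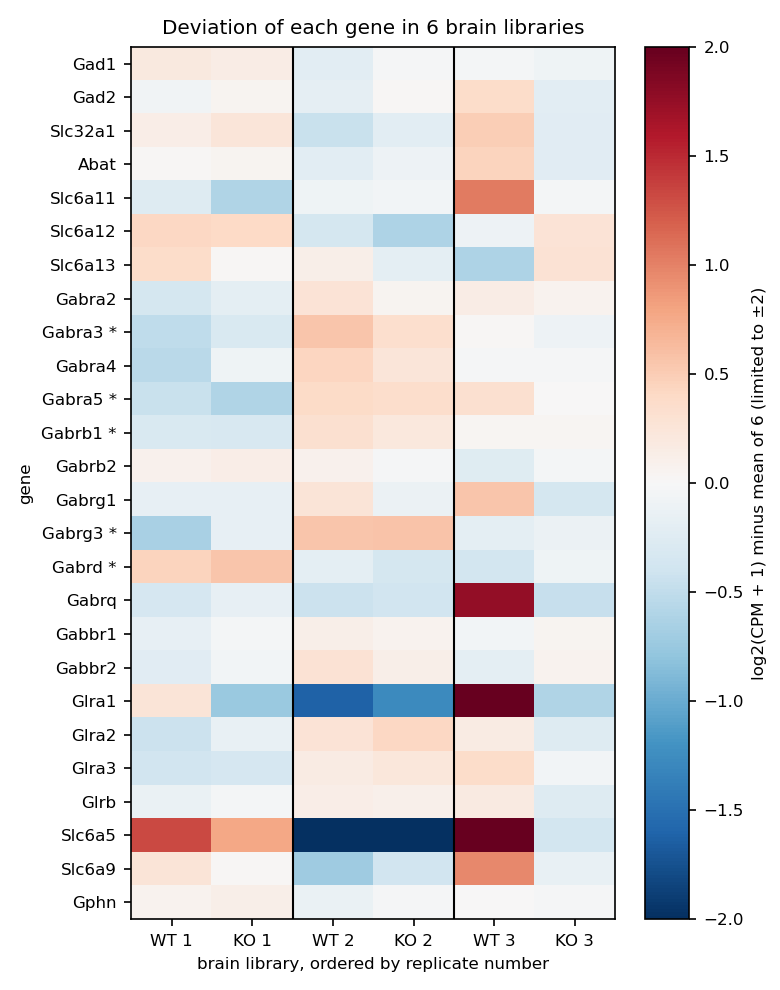
Deviation of each of the 26 members tested in each brain library from its mean over the 6, on the log2(CPM + 1) scale limited to 2 either way; red is above and blue below the mean, columns are ordered by replicate number with wild type (WT) left of knockout (KO), and a star marks the 5 members called for number. At the starred members, same-numbered libraries lie on the same side of the mean for numbers 1 and 2. Some other members, such as Glra1 in number 1 and Gabrg1 in number 2, lie on opposite sides. Wild-type replicate 3 differs from knockout replicate 3 at Glra1, Slc6a5, Gabrq, Slc6a11 and Slc6a9.

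Markers of some brain regions also differed by number. Cerebellum markers summed to 5590 and 5454 CPM in the number 1 libraries (wild type, then knockout), 1216 and 1227 CPM in number 2, and 1814 and 2790 CPM in number 3, and 13 of 14 of them were called for number. Cortex and hippocampus markers summed to 1114 and 1235 CPM in number 1, 2025 and 1803 CPM in number 2, and 1279 and 1687 CPM in number 3, and 4 of 10 were called, beside the same 7.93% of genes. Of the other region lists, 2 of 7 olfactory bulb markers tested, 1 of 5 of thalamus and hypothalamus, 1 of 2 of hindbrain and 0 of 10 of striatum were called. Without wild-type replicate 3, number 3 is a single knockout library and the test has 1 residual degree of freedom, so that library is assumed to vary like the others. There 9 of 10 striatum, 9 of 10 cortex and hippocampus, 14 of 14 cerebellum, 3 of 7 olfactory bulb, 2 of 5 thalamus and hypothalamus and 2 of 2 hindbrain markers were called, beside 18.6% of genes. Striatum markers summed to 335 and 819 CPM in number 1, 317 and 740 CPM in number 2, and 619 and 249 CPM in number 3. Markers of some cell types differed by number too. Inhibitory neuron markers summed to 1044 and 1048 CPM in number 1, 706 and 711 CPM in number 2, and 699 and 883 CPM in number 3. Of the 16, 8 were called. The sum did not follow most of the list: 9 of the 16 were highest in knockout replicate 2 and 2 in wild-type replicate 2. Of the rest, 3 were highest in wild-type replicate 1, and 1 each in knockout replicate 1 and wild-type replicate 3. Astrocyte markers summed to 4597 and 4457, 5852 and 5639, and 5295 and 5204 CPM, with 3 of 10 called. Taken singly, 7 of these 10 were highest in wild-type replicate 3, 2 in wild-type replicate 1 and 1 in wild-type replicate 2. Pan-neuronal markers summed to 5217 and 5631, 7008 and 6717, and 5962 and 5901 CPM, with 1 of 8 called. With all libraries, 0 of 8 oligodendrocyte, 0 of 10 meningeal fibroblast and 0 of 8 choroid plexus markers were called, and without wild-type replicate 3, 0, 3 and 7. Without that library 13 of 16 inhibitory neuron, 4 of 10 astrocyte and 3 of 8 pan-neuronal markers were called. No marker of the cerebellum or cortex list was at 0 in all brain libraries. The part of regional and cell type composition in the 5 calls was not tested.

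The calls for number changed with each library left out, for the members and for all genes. Each such test has 1 number with a single library and 1 residual degree of freedom, with the spread taken from the other numbers. None of the members was called without wild-type replicate 1 (0.270% of genes), wild-type replicate 2 (0.906%), knockout replicate 1 (0.627%) or knockout replicate 2 (2.26%). Without wild-type replicate 3, 10 of 27 were called (18.6% of genes), and without knockout replicate 3, 16 of 27 (19.2%). The 10 were the 5 above with Glra2, Glra3, Slc32a1, Slc6a12 and Slc6a5. In liver, 0 of 8 members were called for number (edgeR, background 1.02% of 15329 genes). Gabbr2 had the smallest unadjusted p, 0.0373, and was lowest in both number 2 libraries. It was called with DESeq2, which called 3.45% of genes, and without liver wild-type replicate 3, where 0.624% were called.

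Other genes of the pathways were described from a list of 30, of which 29 were in the table. It covers chloride carriers, receptor-associated proteins, glycine cleavage and molybdenum cofactor genes. The knockout called 0 of 29 in brain, also without wild-type replicate 3, and 0 of 23 in liver (edgeR). None of the 29 had an unadjusted p under 0.05 in brain, with or without that library. In liver 3 of 23 had an unadjusted p under 0.05, beside 3.50% of genes: Aldh5a1, which follows Abat in GABA breakdown, at -0.26 ± 0.11 on the log2 scale, the amino acid carrier Slc38a1 at 0.62 ± 0.26, and Gcsh of the glycine cleavage system at -0.19 ± 0.08. The replicate block called 0 of 23 in liver. It put 4 genes at an unadjusted p under 0.05, beside 6.41% of genes: these 3, at -0.27 ± 0.09, 0.59 ± 0.20 and -0.19 ± 0.08, and Kctd12 at 0.31 ± 0.11. Between wild-type tissues, 15 of 29 were higher and 13 lower in brain, beside 43.9% and 34.7% of genes, or 18 and 9 with library totals and 14 and 13 without brain wild-type replicate 3. Kctd16, an auxiliary subunit of GABA-B receptors, had no read in liver. Iqsec3, a protein of inhibitory synapses, was higher in brain but had too few counts in liver to be tested there, so its size is not given. Shmt1, which interconverts serine and glycine, was at -7.40 ± 0.21 for brain against liver on the log2 scale. For the brain number, 4 of 29 were called, beside 7.93% of genes: the GABA-B auxiliary subunit genes Kctd8, Kctd12 and Kctd16, and Shisa7, whose protein binds GABA-A receptors. Without wild-type replicate 3, 10 of 29 were called, beside 18.6% of genes.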

How the data were processed

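Ribosome-depleted, strand-preserving single-end total RNA libraries were made from 12 brain and liver samples, per the labels' protocols. Per the submitters' processing notes, cutadapt and STAR were used with build mm10. The counting step is not given in the sources used here. The deposited table holds expected counts, 5.06 to 5.71% of the rows in each library not whole, which were rounded for tests. Genes were tested within each tissue with edgeR 4.0.16 (R 4.3.3) quasi-likelihood fits, trimmed-mean scaling, a filter of 10 counts (15 in all) and Benjamini-Hochberg adjustment at 0.05 over all genes. CPM used the scaled library sizes and TPM the summed exon length of GENCODE genes, whose IDs matched all 55450 rows. Standard errors were derived from the fold change and its F statistic. DESeq2 1.42.0, other scalings and filters, a replicate block and leaving out each library were alternatives. The script was tested on simulated counts.

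In liver, same-numbered libraries deviated together from their group means (Pearson r across 13321 genes 0.33, 0.36 and 0.40 for numbers 1 to 3), so the numbers were taken to pair them. The main fits have no block, and blocked values are given beside the liver knockout counts. The labels do not say that libraries are separate animals, so p-values measure the spread between these libraries. Floors (3 counts) cover counting error only. Members and lists were chosen with earlier results of these data known. Named genes were those called or with an unadjusted p under 0.05, the top 8 by level, those read in liver and those called for number, with the rest by count. No library was left out of the main fits.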

Additional observations from a re-analysis of the deposited data

How the results depend on the processing

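The knockout called 0 members in brain, in liver and in their difference (measurable for 8) under every alternative run: other scalings and filters, DESeq2, a threshold of 0.1, the replicate block and each library left out. With the replicate block, 1 member of 26 had an unadjusted p under 0.05 in brain, beside 2.25% of genes, and 0 of 8 in liver, beside 6.41%. In brain the numbers pair libraries only in part (r across 16676 genes 0.71, 0.68 and -0.03 for numbers 1 to 3), and the block changed no call among the members. The brain number count of 5 ranged from 0 to 16 with 1 library left out. The liver number count of 0 became 1 with DESeq2 (3.45% of genes) and ranged from 0 to 1 with 1 library left out (0.624% of genes at 1); the cause was not tested. Slc6a9 between tissues changed direction with library totals, to 0.60 in wild type and 0.18 in knockout, and without brain wild-type replicate 2, to 0.024, within a range of -0.77 to 0.024. The summed level in wild-type brain was 1516 TPM with lengths from the longest transcript, where the counts were the same and only the lengths changed. Gabre, Gabrp, Gabrr1 and Gabrr2 were too low to test in brain under the main filter with all libraries.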
